A study of Sus scrofa domesticus with 6 samples.

Results

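B cells of the pig lung were compared between lung grafts after ischemia-reperfusion and control lung. A cell was counted as a B cell if it held at least 1000 UMIs (unique molecular identifiers, 1 per captured RNA molecule), 2 or more UMIs of MS4A1, CD79A and CD79B together, fewer than 2 of MZB1, and none of TNFRSF17, CD3E or CD163. The first 3 genes are B cell genes and the last 4 mark plasma cells, T cells and macrophages, so the cells were chosen by measured levels of these 7 genes, which are described here with no test. The rule took 1135 B cells out of 24932 cells with at least 1000 UMIs in 5 libraries, and the whole series holds 43322 cells. It took 265 and 261 B cells from the IRI CD45+ libraries and 166, 279 and 164 from the controls.

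The IRI CD45+ libraries came from single-lung grafts of domestic pigs after 24 h of cold ischemia and 8 h of reperfusion in the recipient (IRI, ischemia-reperfusion injury). Their cells were sorted by flow cytometry for the pan-leukocyte surface protein CD45 with a viability dye, 1 library from each of 2 graft samples. The 3 controls were whole, unsorted suspensions of donors' right lungs taken after retrograde perfusion, with no transplantation. All lungs were digested and freed of red cells in the same way, and the labels give no age, sex or strain. Sorting and injury therefore cannot be told apart, since every graft library was sorted and no control was. Nor can transplantation into a recipient be told apart from either. Whether graft B cells came from the donor lung or from the recipient was not determined.

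B cells carry the B cell receptor, a surface immunoglobulin that signals through CD79A and CD79B, with CD81 among its coreceptors. Naive and memory B cells circulate between blood and lymphoid tissue, led by the chemokine receptors CCR7, CXCR5 and CXCR4 and the oxysterol receptor GPR183, and leave tissue through the sphingosine phosphate receptor S1PR1, which CD69 pulls off the cell surface. In mouse and human lung, memory B cells can also stay in the tissue, and CD69 is one mark of those that do.

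The libraries differed in more than their group. The 5 libraries held 19435860 and 19098567 UMIs (IRI CD45+) and 25802239, 33549585 and 32573142 UMIs (control), of which the B cells held 1493311 and 1527608, and 771847, 1399247 and 852871. B cells of the IRI CD45+ libraries were also deeper, with medians of 4596 and 4920 UMIs per cell, against 3538.5, 3837 and 3578 in the controls. The IRI and control files list different genes: 1033 genes stand in all 3 controls and in neither IRI CD45+ library, among them IGHM and the mitochondrial genes, so that immunoglobulin heavy chains were not compared. Only the 23668 genes listed in all 5 were used. The Y-linked genes ZFY and EIF1AY also set the groups apart: B cells held 43 and 54 ZFY UMIs in the IRI CD45+ libraries against 1, 2 and 0 in the controls, and EIF1AY had 35 and 34 UMIs against 0, 1 and 0. The part of animal sex in any change below was not tested. The files name cells by running number, so the 31906 names that libraries share say nothing about shared cells; no B cell had the same UMI profile as one of another library.

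The label fits the data. BANK1, a B cell scaffold protein that the rule did not use, had a UMI in 25.7% and 18.01% of IRI CD45+ B cells and 28.9%, 35.1% and 37.8% of control B cells, and the transcription factor PAX5 in 28.7% and 28.7%, against 19.9%, 27.6% and 24.4%. In T cells of any library at most 4.20% held BANK1 and at most 2.62% PAX5. PAX5, C16orf74 and ITGAD were, beside the rule's own CD79B and MS4A1, among the genes highest in B cells over other cells in every one of the 5 libraries, which describes the cells chosen.

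The rule reached graft and control cells differently. Cells that only just met it, with exactly 2 UMIs of the 3 B cell genes, made up 11.3% and 9.58% of IRI CD45+ B cells and 25.9%, 24.4% and 20.1% of control B cells. Cells with 10 or more made up 47.9% and 47.5%, against 11.4%, 22.2% and 20.1%. MS4A1, which encodes CD20, was seen in 42.6% and 59.4% of IRI CD45+ B cells and 56.0%, 61.6% and 68.3% of control B cells. In IRI CD45+ library 1, 38.1% of B cells held CD79B alone of the 3, compared with 16.1% in library 2 and 21.1%, 15.4% and 13.4% in the controls. Of the B cells without an MS4A1 UMI, 19.1% and 17.9% still held PAX5 in the IRI CD45+ libraries, against 20.5%, 17.8% and 17.3% in the controls. Just outside the rule, among cells with 1 UMI of the 3 genes, PAX5 was found in 4 of 55 and 7 of 72 in the IRI CD45+ libraries and 15 of 116, 14 of 140 and 15 of 116 in the controls.

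B cells made up a larger share of the sorted graft leukocytes than of whole control lung. They were 7.06% and 7.91% of the cells with at least 1000 UMIs in the IRI CD45+ libraries and 3.35%, 4.26% and 2.58% in the controls. Both graft values lay above all 3 controls, and the means were 7.48% ± 0.607 (SD, n = 2) and 3.39% ± 0.840 (SD, n = 3). The difference of 4.09 percentage points had an exact 2-sided permutation p of 0.1, the smallest that 2 against 3 libraries allow. Set against T cells, which are CD45+ as well, the groups overlapped. B cells were 13.3% and 21.6% of B and T cells together in the IRI CD45+ libraries and 13.6%, 16.9% and 12.5% in the controls (difference 3.12 points, exact 2-sided permutation p = 0.6). With a UMI of MS4A1 also required, a choice made after seeing the data, the difference in share of all cells was 1.77 points. The control files hold no cell under 1000 UMIs, whereas 3756 of 4922 and 3298 of 4705 cells of the IRI CD45+ files reached it.

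**Figure D1:**
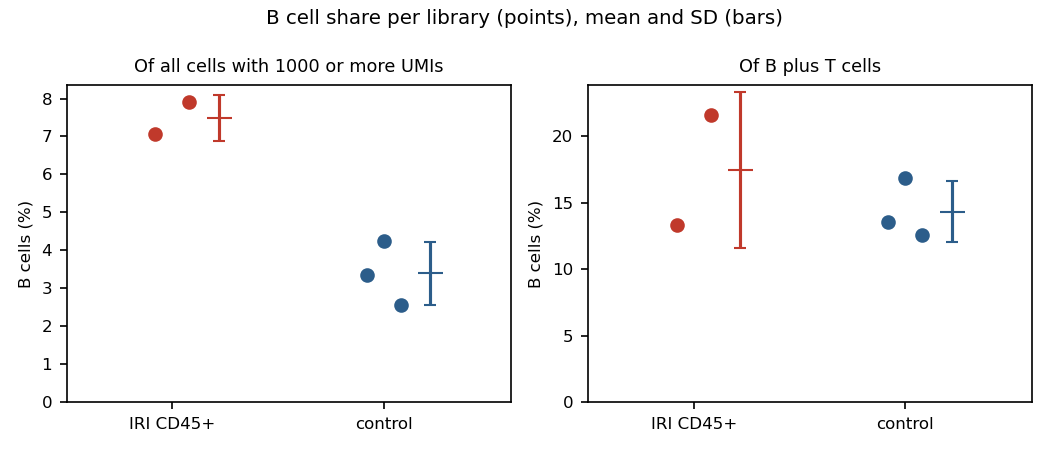
B cell share in each library, as percent of cells with 1000 or more UMIs (left) and as percent of B and T cells together (right); points are libraries and bars are group means with SD. Both IRI CD45+ libraries lie above all controls on the left (7.06% and 7.91% against 2.58% to 4.26%), and the groups overlap on the right (13.3% and 21.6% against 12.5% to 16.9%).

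To compare the groups, the UMIs of B cells were summed per library and tested gene by gene. "Rose" and "fell" below mean that a gene passed an adjusted p of 0.05 in edgeR's quasi-likelihood test, with the log2 change (IRI CD45+ minus control) given ± its standard error; levels are CPM, UMI counts of the summed B cells scaled to a common library size by TMM, and can be compared between libraries but not between genes. Of 8856 genes tested, 1611 rose (18.2%) and 1928 fell (21.8%), 40.0% in all, and 2583 (29.2%) and 2726 (30.8%) lay above or below all controls in both IRI CD45+ libraries. The median log2 change over all tested genes was -0.0151. Many of these changes were shared with T cells of the same libraries. Of 8792 genes tested in both, 3505 passed the test in B cells, and 2730 of these passed it in T cells in the same direction. In T cells 4158 of 13464 genes tested rose and 4483 fell, so some overlap would arise from the number of calls alone. The change in B cells minus that in T cells of the same libraries was therefore tested as well, with limma. That difference was positive and past the threshold for 837 of 13526 genes (6.19%) and negative for 926 (6.85%); without IRI CD45+ library 1 or 2 it passed for 414 and 477 genes in all.

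RNA of other cell types moved with the groups. Summed over 4 fibroblast genes, B cells held 0.670 and 0 CPM in the IRI CD45+ libraries, against 17.9, 286 and 354 CPM in the controls, with COL1A1, DCN and LUM at 0 in both IRI CD45+ libraries. The hemoglobin gene HBB had 0 and 0.655 CPM, against 193, 29.9 and 115 CPM, and 3 smooth muscle genes 1.34 and 5.24 CPM, against 80.8, 31.6 and 23.7 CPM. Neutrophil genes ran the other way, with 132 and 83.9 CPM over 4 listed genes in IRI CD45+ B cells and 7.48, 8.90 and 34.2 CPM in control B cells, as did 3 monocyte genes (101 and 43.3, against 13.5, 17.8 and 27.6 CPM). Over 4 alveolar type 2 genes the sums were 39.5 and 59.6 CPM in IRI CD45+ B cells and 92.7, 334 and 77.7 CPM in control B cells, with SFTPD at 0 in both IRI CD45+ libraries, and over 8 plasma cell genes, of which the rule used MZB1 and TNFRSF17, 240.0 and 267 CPM, against 423, 431 and 455 CPM. Over 5 dendritic cell genes they were 2546 and 2306 CPM, against 1458, 1375 and 1375 CPM, and this list holds CCR7 and IRF8, which B cells also make. The alveolar type 2 list holds NAPSA, which was among the leading B cell genes of controls 1 and 3. It had 67.4 CPM in B cells against 10.3 CPM in other cells of control 1, and 65.7 against 6.56 CPM in control 3. SFTPC of the same list had 3.35 and 1.97 CPM in IRI CD45+ B cells and 8.97, 264 and 1.32 CPM in control B cells. T cell genes overlapped (102 and 63.6, against 92.7, 93.8 and 89.5 CPM, with CD3E at 0 by the rule), as did 7 macrophage genes (14.1 and 16.4, against 13.5, 61.5 and 17.1 CPM) and 7 NK cell genes (129 and 78.6, against 102, 336 and 97.4 CPM). The part of this RNA in the changes of single genes was not tested.

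The 3 largest rises named here were of genes near 0 in control B cells. ARG1, the urea cycle enzyme arginase 1 and a granule protein of neutrophils in humans, had 366 and 225 CPM in the IRI CD45+ libraries, against 0, 1.63 and 2.65 CPM in the controls (log2 change 7.497 ± 0.38, adjusted p = 2.78e-12), and rose in T cells too (log2 change 7.43). TGM3, a transglutaminase, had 274 and 233 CPM in the IRI CD45+ libraries, against 1.58, 4.88 and 0 CPM in the controls (log2 change 6.52 ± 0.35, adjusted p = 2.15e-12; 6.11 in T cells). RETN, the secreted protein resistin of human myeloid cells, had 170 UMIs in the IRI CD45+ libraries together and 2 in the controls, a ratio of 74.6 (95% counting interval 20.3 to 621). The neutrophil sums given above were higher in the same IRI CD45+ libraries.

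TNFRSF18, the costimulatory receptor GITR, had 189 and 191 CPM in the IRI CD45+ libraries, against 1.58, 7.32 and 13.2 CPM in the controls (log2 change 4.62 ± 0.31, adjusted p = 1.04e-10), a larger change than in T cells (difference 2.02 ± 0.54, adjusted p = 0.0224). ITGAD (Sscrofa11.1 chromosome 3, 17136161 to 17169776), an integrin alpha chain that ranked among the leading B cell genes of every library, had 353 and 389 CPM in the IRI CD45+ libraries, against 61.6, 49.6 and 96.6 CPM in the controls (log2 change 2.45 ± 0.21, adjusted p = 5.4e-09). T cells hardly held it, at 8.32 CPM on average in IRI CD45+ T cells and 4.07 CPM in control T cells, and the B cell change exceeded theirs by 1.499 ± 0.34, adjusted p = 0.00891. BMF, a pro-death BCL2 family member, had 211 and 168 CPM in the IRI CD45+ libraries, against 15.8, 29.3 and 50.3 CPM in the controls (log2 change 2.56 ± 0.27, adjusted p = 1.06e-06). TP53I11, a p53-induced gene, rose by 2.50 ± 0.19, GTPBP4, a GTPase of ribosome assembly, by 2.43 ± 0.21, and the chemokine CCL3L1 by 4.06 ± 0.67. For all 6 genes both graft libraries lay above all 3 controls, which the rule that named them required. The differences from T cells were lost without either IRI CD45+ library, and that of TNFRSF18 also without control 1 or control 2.

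Among the largest falls, the inducible chaperone HSP70.2 had 16.2 and 30.7 CPM in the IRI CD45+ libraries, against 4071, 3206 and 2658 CPM in the controls (log2 change -7.13 ± 0.36, adjusted p = 2.58e-05). The related HSPA6 had 7.42 and 15.3 CPM in the IRI CD45+ libraries, against 715, 441 and 348 CPM in the controls (log2 change -5.44 ± 0.45, adjusted p = 5.65e-05). ADORA2A, the adenosine receptor that raises cAMP in lymphocytes, had 8.76 and 2.67 CPM in the IRI CD45+ libraries, against 163, 109 and 136 CPM in the controls (log2 change -4.53 ± 0.35, adjusted p = 1.28e-09), and fell further than in T cells (difference -2.52 ± 0.39, adjusted p = 0.000526). AURKB, a mitotic kinase, had 2.70 and 4.67 CPM in the IRI CD45+ libraries, against 45.8, 73.2 and 52.9 CPM in the controls (log2 change -3.95 ± 0.40, adjusted p = 5.33e-08). ZAN had no UMI in IRI CD45+ B cells and 48, 128 and 52 in control B cells, at least 82.4-fold lower if 3 counts over both libraries are taken as the floor. The matrix and complement genes SPARC, PODN and C3 also fell, beside the fibroblast sums given above. SPARC had 2 UMIs in the IRI CD45+ libraries together and 199 in the controls, a ratio of 113 (95% counting interval 31.0 to 942), PODN changed by -4.89 and C3 by -4.89. The SPARC and C3 calls were lost when either IRI CD45+ library was left out. TEFM changed by -4.51, with 0 UMIs in IRI CD45+ library 1 and 7 in library 2, and by -8.84 without library 2. TMEM98 changed by -4.01.

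The B cell identity genes did not move together. Of 22 tested, 5 rose and 7 fell (22.7% and 31.8%, against 18.2% and 21.8% of all genes), with a median log2 change of -0.02. The tyrosine kinase BLK (213 and 216 against 114, 96.0 and 109.9 CPM), the surface glycoprotein CD24 (365 and 386 against 219, 162 and 164 CPM), the lectin CD72 and the BAFF receptor gene TNFRSF13C were among those that rose. For these 4 both graft libraries lay above every control, as for 29.2% of all genes tested. The genes that fell were ARHGAP24, STAP1, POU2F2, FCRLA, BANK1, RALGPS2 and SWAP70, with log2 changes between -3.45 and -0.46; the SWAP70 call was lost without control 1, control 3 or IRI CD45+ library 1. BANK1 had 119 and 87.4 CPM in the IRI CD45+ libraries, against 153, 198 and 212 CPM in the controls (log2 change -0.87 ± 0.19, adjusted p = 0.000828). STAP1, an adaptor downstream of the B cell receptor, had 6.07 and 4.67 CPM in the IRI CD45+ libraries, against 89.98, 55.3 and 37.1 CPM in the controls (log2 change -3.45 ± 0.41, adjusted p = 9.2e-07).

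The lineage transcription factors PAX5 and EBF1 did not pass the test in B cells. PAX5 had 142 and 146 CPM in the IRI CD45+ libraries, against 74.2, 121 and 120.5 CPM in the controls (log2 change 0.43 ± 0.20, adjusted p = 0.0876). EBF1 had 95.1 and 49.4 CPM in the IRI CD45+ libraries, against 47.4, 61.0 and 66.2 CPM in the controls (log2 change 0.30 ± 0.27, adjusted p = 0.398; -0.22 without IRI CD45+ library 1). In T cells both fell (log2 changes -2.82 and -3.48), so the B cell change exceeded that of T cells by 2.89 ± 0.44 for PAX5 and 3.22 ± 0.47 for EBF1. Levels in T cells were low, with 0.561 CPM on average in IRI CD45+ T cells and 6.23 CPM in control T cells for EBF1. The B lineage regulators SPIB (0.08), BCL11A (0.08) and POU2AF1 (-0.19) did not pass the test, nor did the follicle-homing receptor CXCR5 (0.27).

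Among genes that carry the B cell receptor signal, 6 of 22 rose and 5 fell, with a median log2 change of 0.01. These were 27.3% and 22.7%, against 18.2% and 21.8% of all genes. In a fit of genes with a span under 50 kb only, 5 members were tested, of which 2 rose and none fell. The coreceptor CD81 had 754 and 759 CPM in the IRI CD45+ libraries, against 333, 326 and 334 CPM in the controls (log2 change 1.19 ± 0.13, adjusted p = 2.57e-07) and lay higher in both graft libraries than in every control. The paracaspase MALT1, which links the receptor to NF-kB, had 236 and 163 CPM in the IRI CD45+ libraries, against 61.6, 64.3 and 83.4 CPM in the controls (log2 change 1.52 ± 0.20, adjusted p = 2.58e-06). GRB2, VAV1 and VAV2, an adaptor and 2 exchange factors, were among the other rises, with log2 changes of 0.80, 0.68 and 1.54; VAV1 lost its call without IRI CD45+ library 1. RASGRP3, which activates RAS after receptor ligation, had 20.2 and 40.0 CPM in the IRI CD45+ libraries, against 161, 142 and 196 CPM in the controls (log2 change -2.45 ± 0.25, adjusted p = 1.41e-07). The transcription factor NFATC1 had 42.5 and 54.7 CPM in the IRI CD45+ libraries, against 159, 177 and 196 CPM in the controls (log2 change -1.87 ± 0.20, adjusted p = 1.24e-07). PIK3AP1, the adaptor BCAP for PI3 kinase, fell in B cells (141 and 175 CPM in the IRI CD45+ libraries, against 325, 319 and 318 CPM in the controls) while it rose by 1.02 in T cells (difference -1.97 ± 0.19, adjusted p = 8.61e-06). The kinases SYK (0.36 ± 0.15) and BTK (-0.41 ± 0.30) and the adaptor BLNK (0.02 ± 0.20) did not pass the test, and the call of LYN (-0.42 ± 0.16) was lost when control 2, control 3 or either IRI CD45+ library was left out.

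Of 10 genes that restrain the receptor, 1 rose and 3 fell (10% and 30%, against 18.2% and 21.8% of all genes). The phosphatase PTPN6 (SHP-1) had 37.8 and 46.0 CPM in the IRI CD45+ libraries, against 136, 132 and 146 CPM in the controls (log2 change -1.71 ± 0.21, adjusted p = 9.42e-07). The lipid phosphatase INPP5D (SHIP1) had 76.2 and 93.4 CPM in the IRI CD45+ libraries, against 212, 211 and 184 CPM in the controls (log2 change -1.25 ± 0.18, adjusted p = 7.99e-06), against a T cell change of 0.32 (difference -1.49 ± 0.19, adjusted p = 0.000127). CSK, the kinase that inhibits SRC family kinases, fell (log2 change -0.69 ± 0.19) and CD72 rose by 1.81 ± 0.32. CD22 had 24.3 and 30.0 CPM in the IRI CD45+ libraries, against 31.6, 39.1 and 21.2 CPM in the controls and did not pass the test.

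CCR7 and CD69 moved in opposite directions, and most called genes of migration and adhesion fell. CCR7 (Sscrofa11.1 chromosome 12, 21857286 to 21869211), the receptor that draws lymphocytes to lymph nodes, had 1998 and 1807 CPM in the IRI CD45+ libraries, against 761, 648 and 747 CPM in the controls (log2 change 1.41 ± 0.11, adjusted p = 1.58e-09), so that both graft libraries held more than each control. CD69 (chromosome 5, 62078134 to 62084961) moved the other way, with 248 and 459 CPM in the IRI CD45+ libraries, against 1465, 936 and 864 CPM in the controls (log2 change -1.62 ± 0.42, adjusted p = 0.0484); without IRI CD45+ library 1 it changed by -1.21 (adjusted p = 0.097). GPR183, which positions B cells around follicles, had 867 and 769.9 CPM in the IRI CD45+ libraries, against 1597, 1631 and 1889 CPM in the controls (log2 change -1.06 ± 0.12, adjusted p = 1.91e-07). CXCR4, the receptor for CXCL12, had 816 and 932 CPM in the IRI CD45+ libraries, against 1744, 1543 and 1504 CPM in the controls (log2 change -0.87 ± 0.12, adjusted p = 3.18e-06). Of the 20 migration and adhesion genes tested, 2 rose and 9 fell (45.0%, against 21.8% of all genes), with a median log2 change of -0.52.

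The integrins of this list split. ITGB7, the beta chain of the mucosal homing receptor, had 22.2 and 22.7 CPM in the IRI CD45+ libraries, against 232, 173 and 213 CPM in the controls (log2 change -3.18 ± 0.22, adjusted p = 1.15e-10). Its partner ITGA4 had 66.7 and 36.0 CPM in the IRI CD45+ libraries, against 118, 124 and 116 CPM in the controls (log2 change -1.22 ± 0.24, adjusted p = 0.000266). ITGB2, the beta chain shared by LFA-1 and by the ITGAD integrin, had 229 and 267 CPM in the IRI CD45+ libraries, against 83.7, 82.2 and 109.9 CPM in the controls (log2 change 1.44 ± 0.18, adjusted p = 1.02e-06) and was the other gene of the list that rose. ITGB1 had 152 and 155 CPM in the IRI CD45+ libraries, against 283, 270.1 and 257 CPM in the controls (log2 change -0.81 ± 0.16, adjusted p = 0.000318). CXCR3, a receptor for interferon-induced chemokines, was low, at 0.674 and 2.67 CPM in the IRI CD45+ libraries, against 15.8, 13.8 and 14.6 CPM in the controls (log2 change -3.04 ± 0.70, adjusted p = 0.00127). S1PR1 and its transcriptional activator KLF2 also fell (log2 changes -0.61 ± 0.21 and -0.43 ± 0.16); the first call was lost without control 2, control 3 or IRI CD45+ library 1, and the second without control 1, control 2 or either IRI CD45+ library.

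Most of these changes differed from those of T cells in the same libraries. CXCR4 changed by 0.36 in T cells (difference -1.16 ± 0.09, adjusted p = 8.5e-07), GPR183 by 0.18 (difference -1.16 ± 0.15, adjusted p = 0.000131), and S1PR1 by 1.68 (difference -2.19 ± 0.19, adjusted p = 3.45e-06). ITGB7 fell less in T cells (-0.90; difference -2.13 ± 0.21, adjusted p = 1.01e-05), and ITGB2 changed there by -0.02 (difference 1.51 ± 0.18, adjusted p = 5.55e-05). CCR7 rose more in T cells than in B cells (2.62; difference -1.15 ± 0.15, adjusted p = 0.000127). The fall of CD69 did not differ between the 2 cell types past the threshold (-1.27 in T cells; difference -0.23 ± 0.15, adjusted p = 0.323). In all, 2 of 21 list genes were higher and 8 lower in B cells relative to T cells (6.19% and 6.85% of all genes). The difference for GPR183 passed the edgeR interaction test as well (adjusted p = 0.0414), but not without control 1 or control 2.

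**Figure D2:**
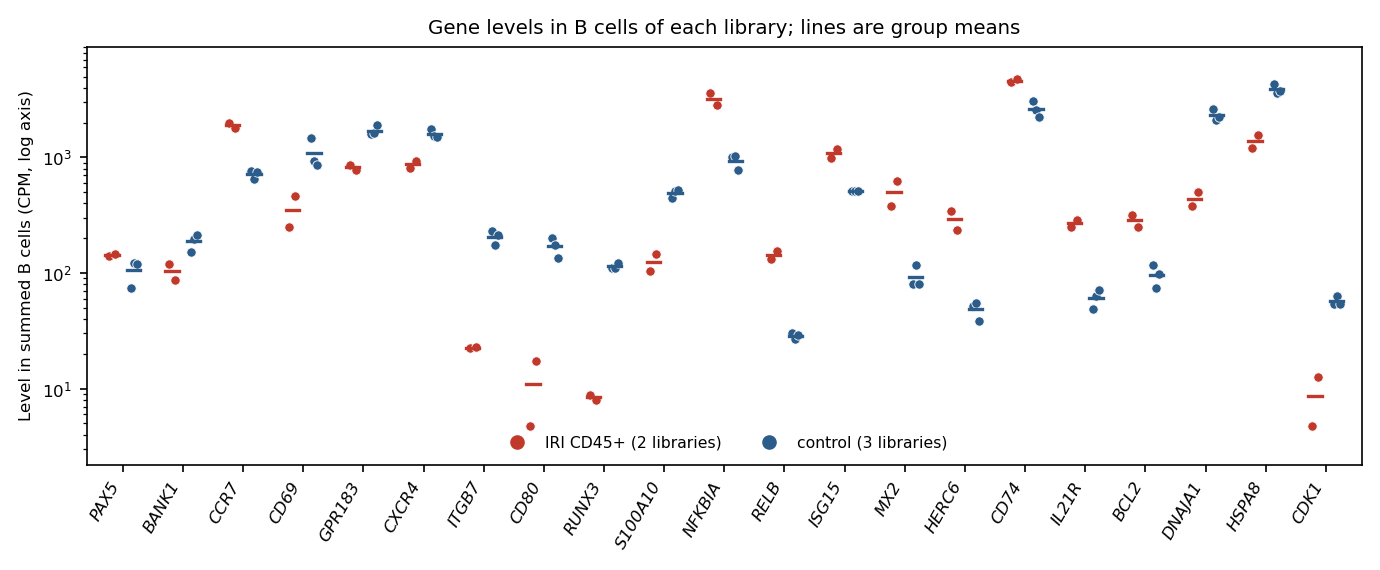
Level of 21 genes in the summed B cells of each library (CPM, log axis); points are libraries, lines are group means, IRI CD45+ left of control for each gene. CCR7, NFKBIA, RELB, MX2, CD74 and BCL2 sit higher in both IRI CD45+ libraries, and ITGB7, CD80, RUNX3, S100A10, DNAJA1 and CDK1 sit lower; the genes shown were chosen after their values were seen.

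CCR7 and CD69 were then followed cell by cell, with every B cell thinned to 1000 UMIs over the shared genes so that depth was equal. This used 264 and 261 IRI CD45+ B cells and 158, 263 and 155 control B cells, and left out 1 and 0, and 8, 16 and 9. B cells with CCR7 and no CD69 made up 61.4% and 47.9% in the IRI CD45+ libraries, against 22.2%, 17.1% and 30.3% in the controls. B cells with CD69 and no CCR7 made up 4.17% and 9.96%, against 36.7%, 26.6% and 13.5%. In both classes the 2 groups did not overlap. B cells with both were 12.5% and 18.4%, against 17.7%, 17.1% and 17.4%, and those with neither 21.97% and 23.8%, against 23.4%, 39.2% and 38.7%. The controls differed among themselves, CD69-only cells being more than CCR7-only cells in controls 1 and 2 and fewer in control 3.

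Without thinning, CCR7-only cells were 49.6% and 35.2% of IRI CD45+ B cells, against 15.8%, 17.1% and 26.5% of control B cells, and CD69-only cells 6.06% and 11.11%, against 32.3%, 27.8% and 16.8%. Macrophages were taken as cells with 2 or more CD163 UMIs and none of MS4A1, CD79A, CD79B, CD3E, CD3D or CD3G, and were thinned alike. In these CCR7 was found in 16.7% and 6.96% of IRI CD45+ cells and 6.78%, 10.4% and 13.1% of control cells, and CD69 in 2.78% and 1.74%, against 1.69%, 2.31% and 1.92%. Whether macrophages make either gene themselves was not tested. Their median depth was 12456 and 9459 UMIs, against 7362, 6172.5 and 7768, and the value of 16.7% rests on 36 cells. In T cells thinned alike, CCR7 was found in 37.1% and 32.8% of IRI CD45+ cells and 7.41%, 8.16% and 9.36% of control cells, and CD69 in 28.7% and 42.6%, against 58.1%, 57.1% and 55.4%.

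**Figure D3:**
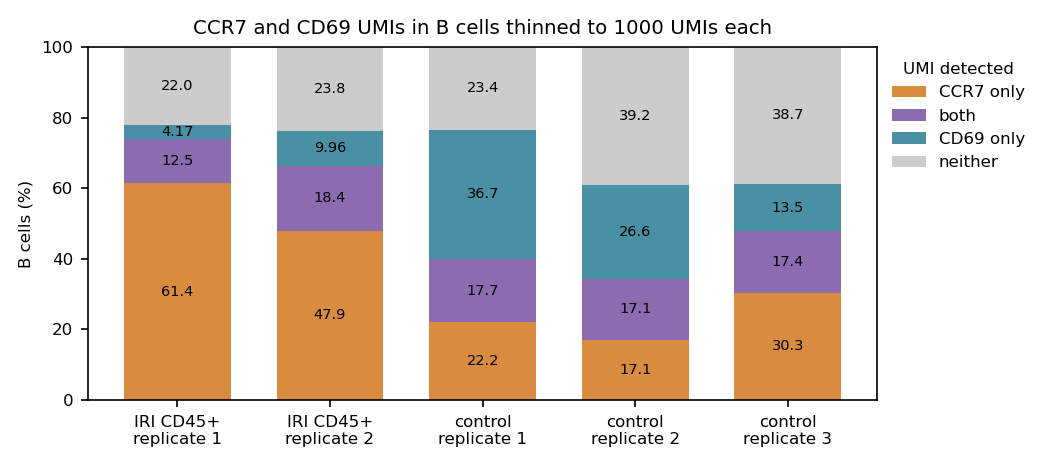
Share of B cells of each library with a UMI of CCR7 only, CD69 only, both or neither, after thinning each cell to 1000 UMIs; bars are stacked to 100% of the thinned B cells. CCR7-only cells are 61.4% and 47.9% in the IRI CD45+ libraries and 17.1% to 30.3% in the controls.

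Genes of naive and recirculating lymphocytes split between rises and falls (30.8% and 38.5%, against 18.2% and 21.8% of all genes). Of 13 tested, 4 rose and 5 fell, with a median log2 change of -0.45; without control 1 or control 2, 3 fell. Besides CCR7, the transcription factor FOXP1 had 333 and 294 CPM in the IRI CD45+ libraries, against 56.8, 92.8 and 101 CPM in the controls (log2 change 1.89 ± 0.19, adjusted p = 5.64e-08). The antiproliferative BTG1 had 386 and 294 CPM in the IRI CD45+ libraries, against 180.0, 145 and 168 CPM in the controls (log2 change 1.06 ± 0.17, adjusted p = 2.76e-05), and IL4R also rose. TXNIP, a glucose-sensitive inhibitor of thioredoxin, had 43.1 and 31.4 CPM in the IRI CD45+ libraries, against 466, 396 and 283 CPM in the controls (log2 change -3.35 ± 0.23, adjusted p = 2.55e-10). FOXO1, which maintains IL7R transcription, had 74.2 and 72.7 CPM in the IRI CD45+ libraries, against 178, 175 and 192 CPM in the controls (log2 change -1.30 ± 0.18, adjusted p = 4.31e-06). Relative to T cells, 10 of 14 were lower in B cells and 1, FOXP1, was higher (6.85% and 6.19% of all genes). The FOXP1 difference was lost without control 1 or either IRI CD45+ library. BACH2, which keeps lymphocytes undifferentiated, changed by -0.58 in B cells and 2.11 in T cells (difference -2.61 ± 0.23, adjusted p = 4.21e-06). Its change in B cells did not pass the test (adjusted p = 0.0542), but did when control 3 or IRI CD45+ library 2 was left out.

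Most genes of the memory and atypical B cell list fell, beside 21.8% of all genes tested. Of 16 tested, 9 fell (56.3%), none rose, and the median log2 change was -1.17; 9 fell also when any library was left out. RUNX3 (Sscrofa11.1 chromosome 6, 82531203 to 82595044), a transcription factor of differentiated lymphocytes, had 8.76 and 8.01 CPM in the IRI CD45+ libraries, against 110.5, 111 and 122 CPM in the controls (log2 change -3.75 ± 0.29, adjusted p = 6.3e-10). CD80 (chromosome 13, 140693312 to 140730541), a costimulatory ligand and memory mark of mouse B cells, had 4.72 and 17.3 CPM in the IRI CD45+ libraries, against 200.5, 176 and 135 CPM in the controls (log2 change -3.93 ± 0.34, adjusted p = 1.67e-07). For both genes the highest graft value was far below the lowest control. S100A10, a calcium-binding partner of annexin A2, had 104 and 145 CPM in the IRI CD45+ libraries, against 444, 513 and 518 CPM in the controls (log2 change -1.98 ± 0.18, adjusted p = 5.45e-09). The scaffold AHNAK had 8.76 and 20.01 CPM in the IRI CD45+ libraries, against 99.4, 108 and 92.7 CPM in the controls (log2 change -2.79 ± 0.30, adjusted p = 1.3e-07). TBX21 (T-bet), which marks atypical B cells, had 34.4 and 26.7 CPM in the IRI CD45+ libraries, against 75.8, 83.0 and 127 CPM in the controls (log2 change -1.64 ± 0.27, adjusted p = 4.35e-05). S100A4, LGALS1, VIM and ITGB1 were the other 4, with log2 changes of -2.04, -2.51, -1.52 and -0.81.

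The list fell less in T cells. For 8 of 17 genes the B cell change was lower than the T cell change past the threshold and for none higher (6.85% and 6.19% of all genes). CD80 differed by -2.41 ± 0.31, adjusted p = 0.000115, TBX21 by -1.46 ± 0.27, adjusted p = 0.00239 and S100A10 by -1.21 ± 0.12, adjusted p = 8.96e-06; the TBX21 difference was lost without IRI CD45+ library 2. AHNAK fell in both cell types (-3.38 in T cells) and the difference did not pass the threshold (0.60 ± 0.39). CD44 (0.15 ± 0.19), TNFRSF13B (-0.53 ± 0.36), FAS (-0.18 ± 0.34) and CD86 (0.10 ± 0.18) did not pass the test in B cells. S100A10, S100A4, LGALS1 and VIM are also made by fibroblasts and macrophages. The fibroblast sums given above were lower in the IRI CD45+ libraries, and the macrophage sums overlapped between the groups. The part of such RNA in these falls was not tested.

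Of 26 early activation genes tested, 6 rose and 8 fell (23.1% and 30.8%, against 18.2% and 21.8% of all genes). The nuclear receptors of the NR4A family, induced within an hour of receptor signalling, fell: NR4A3 had 107 and 67.4 CPM in the IRI CD45+ libraries, against 331, 370.2 and 289.9 CPM in the controls (log2 change -1.92 ± 0.20, adjusted p = 8.41e-08). NR4A2 had 267 and 264 CPM in the IRI CD45+ libraries, against 699, 638 and 711 CPM in the controls (log2 change -1.36 ± 0.14, adjusted p = 9.02e-08), and NR4A1 changed by -0.58. JUNB had 447 and 319.6 CPM in the IRI CD45+ libraries, against 1078, 860.0 and 867 CPM in the controls (log2 change -1.28 ± 0.16, adjusted p = 9.93e-07). EGR1 had 144 and 157 CPM in the IRI CD45+ libraries, against 359.9, 316 and 239.6 CPM in the controls (log2 change -1.02 ± 0.18, adjusted p = 9.24e-05). FOS varied between libraries of one group, with 724 and 1159 CPM in the IRI CD45+ libraries, against 1209, 993 and 488 CPM in the controls. JUN had 726 and 653 CPM in the IRI CD45+ libraries, against 740.3, 740.4 and 609 CPM in the controls; neither passed the test. PIM1, a survival kinase induced by cytokines, had 285 and 314 CPM in the IRI CD45+ libraries, against 61.6, 86.2 and 80.7 CPM in the controls (log2 change 1.95 ± 0.18, adjusted p = 7.62e-09), a rise smaller than in T cells (difference -0.79 ± 0.19, adjusted p = 0.0107; lost without either IRI CD45+ library). The surface protein CD83 had 1223 and 959 CPM in the IRI CD45+ libraries, against 908, 1028 and 948 CPM in the controls and did not pass the test (log2 change 0.18 ± 0.12, adjusted p = 0.257), except without IRI CD45+ library 2 (0.36).

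Most genes of the NF-kB list rose, beside 18.2% of all genes tested. Of 19 subunit and feedback genes, 13 rose (68.4%) and 3 fell (15.8%), with a median log2 change of 0.63; without control 2 or without IRI CD45+ library 1 the counts were 10 and 1. NFKBIA, the inhibitor that NF-kB itself induces, had 3609 and 2813 CPM in the IRI CD45+ libraries, against 1002, 1019 and 773 CPM in the controls (log2 change 1.78 ± 0.13, adjusted p = 2.35e-09). RELB, a subunit of the alternative pathway, had 132 and 154 CPM in the IRI CD45+ libraries, against 30.0, 26.8 and 29.1 CPM in the controls (log2 change 2.33 ± 0.23, adjusted p = 2.37e-08). The nuclear cofactor BCL3 had 79.5 and 66.7 CPM in the IRI CD45+ libraries, against 6.31, 13.8 and 22.5 CPM in the controls (log2 change 2.33 ± 0.32, adjusted p = 4.79e-06). For these 3 genes both graft libraries lay far above every control, where 29.2% of all genes tested lay above every control in both. BIRC3, a ubiquitin ligase and also a target of the pathway, fell, with 479 and 414 CPM in the IRI CD45+ libraries, against 922, 865 and 754 CPM in the controls (log2 change -0.92 ± 0.14, adjusted p = 1.28e-05), as did TRAF1 and NFKBID. REL and NFKB1 rose by 0.37 and 0.53, and NFKB2 (0.35) and RELA (0.45) did not pass the test. REL lost its call without control 2, control 3 or IRI CD45+ library 2, NFKB1 without IRI CD45+ library 2, TRAF1 without control 2 or IRI CD45+ library 1, and NFKBID without any 1 library other than control 1. Past the threshold of limma's test, the B cell change was higher than the T cell change for none of the 19 and lower for 2 (6.19% and 6.85% of all genes).

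Most interferon response genes rose as well, beside 18.2% of all genes tested. Of 34 tested, 24 rose (70.6%) and 2 fell (5.88%), with a median log2 change of 1.003; leaving out 1 library gave 17 to 22 rises and 1 or 2 falls. MX2, an antiviral GTPase, had 380.2 and 629 CPM in the IRI CD45+ libraries, against 80.5, 117 and 80.7 CPM in the controls (log2 change 2.41 ± 0.22, adjusted p = 2.34e-07). HERC6, a HECT domain protein, had 345 and 235 CPM in the IRI CD45+ libraries, against 52.1, 55.3 and 38.4 CPM in the controls (log2 change 2.56 ± 0.20, adjusted p = 1.65e-09). EIF2AK2, the RNA-activated kinase PKR, had 361 and 328 CPM in the IRI CD45+ libraries, against 75.8, 99.3 and 54.3 CPM in the controls (log2 change 2.14 ± 0.19, adjusted p = 1.16e-08). ISG15, a ubiquitin-like modifier, had 991 and 1180.2 CPM in the IRI CD45+ libraries, against 507, 509 and 515 CPM in the controls (log2 change 1.09 ± 0.13, adjusted p = 3.64e-07). Its 3 controls lay close together and both graft libraries well above them. IRF7, the factor that amplifies type I interferon, had 129 and 80.7 CPM in the IRI CD45+ libraries, against 20.5, 26.8 and 27.8 CPM in the controls (log2 change 2.04 ± 0.27, adjusted p = 2.27e-06). The RNA sensor DDX58 (RIG-I) and SP110 fell (-1.30 and -1.33), and the DDX58 call was lost without control 1 or IRI CD45+ library 2. GBP1, induced mainly by interferon gamma, had 812 and 395 CPM in the IRI CD45+ libraries, against 489, 444 and 399.7 CPM in the controls and did not pass the test; it changed by 0.88 (adjusted p = 6.31e-05) without IRI CD45+ library 2 and by -0.14 without library 1.

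Against T cells, 4 of 39 interferon genes changed more in B cells and 6 less (6.19% and 6.85% of all genes). IFI6, a mitochondrial antiviral protein, had 746 and 596 CPM in the IRI CD45+ libraries, against 212, 306 and 282 CPM in the controls in B cells (log2 change 1.32 ± 0.16, adjusted p = 9.42e-07) and changed by -0.14 in T cells (difference 1.47 ± 0.17, adjusted p = 4.64e-05). HERC6 also rose further in B cells (difference 1.02 ± 0.19, adjusted p = 0.00272). ISG15 (difference -0.58 ± 0.12, adjusted p = 0.00548) and MX2 (difference -0.76 ± 0.23, adjusted p = 0.0421) rose further in T cells. DDX58 fell in B cells and changed by 0.80 in T cells (difference -1.92 ± 0.37, adjusted p = 0.00307). These differences were lost without IRI CD45+ library 1 for HERC6, without library 2 for DDX58, without either for ISG15, and without control 1, control 3 or either for MX2.

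**Figure D4:**
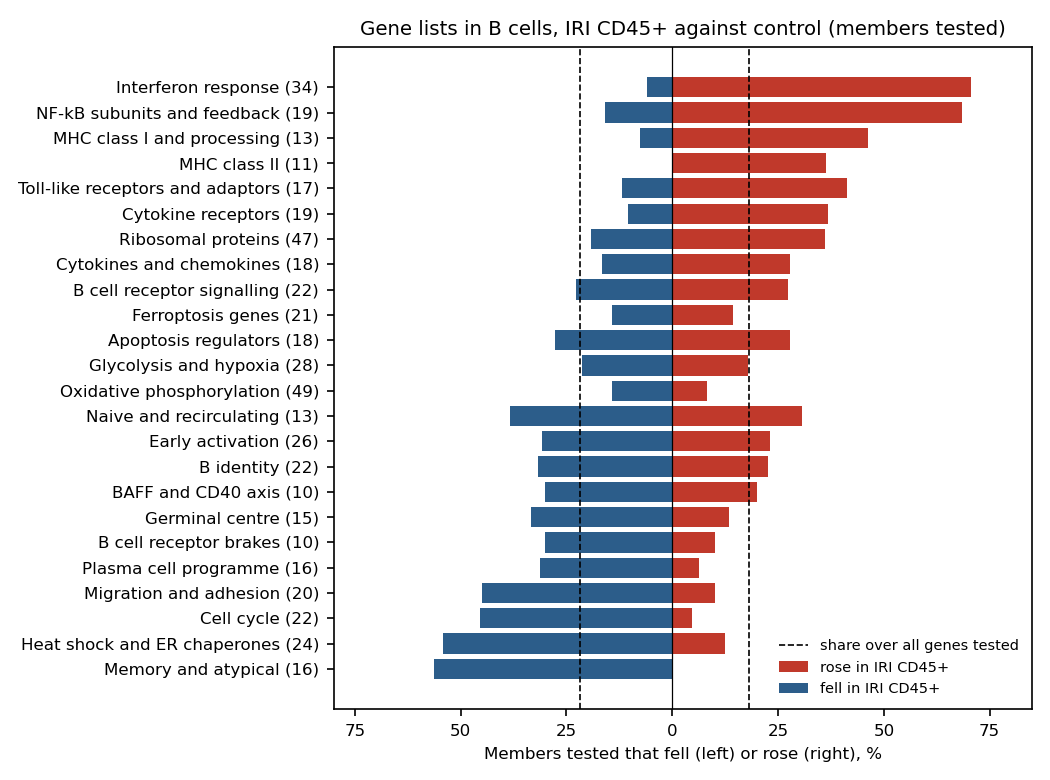
Share of the tested members of each gene list that rose (bars to the right) or fell (bars to the left) in B cells, IRI CD45+ minus control, in percent, with the number tested in brackets; dashed lines mark the shares over all genes tested, 18.2% and 21.8%. Interferon (70.6% rose) and NF-kB genes (68.4% rose) stand at the top, and heat shock (54.2% fell) and memory and atypical genes (56.3% fell) at the bottom.

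Of 11 MHC class II genes tested, 4 rose (36.4%, against 18.2% of all genes) and none fell (21.8% of all genes). CD74, the invariant chain that loads class II molecules, had 4511 and 4717 CPM in the IRI CD45+ libraries, against 3072, 2556 and 2238 CPM in the controls (log2 change 0.82 ± 0.11, adjusted p = 4.11e-06). LGMN, a lysosomal protease, had 107 and 128 CPM in the IRI CD45+ libraries, against 33.1, 38.2 and 31.8 CPM in the controls (log2 change 1.75 ± 0.23, adjusted p = 2.29e-06). LGMN changed by 0.15 in T cells (difference 1.596 ± 0.24, adjusted p = 0.000408). RFX5, which binds class II promoters, had 77.5 and 84.1 CPM in the IRI CD45+ libraries, against 36.3, 26.0 and 33.1 CPM in the controls (log2 change 1.37 ± 0.25, adjusted p = 0.000152), whereas the master regulator CIITA had 39.8 and 44.7 CPM in the IRI CD45+ libraries, against 47.4, 60.2 and 63.5 CPM in the controls and did not pass the test. SLA-DQB1, a class II beta chain, rose by 0.28 ± 0.10; the call was lost without control 2, control 3 or IRI CD45+ library 2. SLA-DRA and SLA-DRB1 are not listed in all 5 libraries.

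In the class I list 6 of 13 rose and 1 fell (46.2% and 7.69%, against 18.2% and 21.8% of all genes). B2M, the light chain of class I molecules, had 3137 and 2728 CPM in the IRI CD45+ libraries, against 1913, 1727 and 1735 CPM in the controls (log2 change 0.71 ± 0.10, adjusted p = 5.58e-06). The peptide transporter TAP1 had 384 and 283 CPM in the IRI CD45+ libraries, against 207, 192 and 176 CPM in the controls (log2 change 0.80 ± 0.17, adjusted p = 0.000514). Both rose further in T cells (differences -0.65 and -0.89), the TAP1 difference being lost without IRI CD45+ library 2. PSME2, a proteasome activator, had 492 and 312 CPM in the IRI CD45+ libraries, against 218, 192 and 208 CPM in the controls (log2 change 0.97 ± 0.18, adjusted p = 0.00016) and changed by -0.14 in T cells (difference 1.12 ± 0.16, adjusted p = 0.0003). Its B cell change was 0.63 without IRI CD45+ library 1. PDIA3 rose by 0.79 ± 0.17. NLRC5, the class I transactivator, fell (log2 change -0.71 ± 0.26), and the call was lost without control 1, control 2 or IRI CD45+ library 2.

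Of 18 cytokine genes, 5 rose and 3 fell; without IRI CD45+ library 1, 3 rose and 2 fell. With all 5 libraries the shares were 27.8% and 16.7%, against 18.2% and 21.8% of all genes. CSF1, the macrophage growth factor, had 52.6 and 37.4 CPM in the IRI CD45+ libraries, against 4.74, 0.814 and 1.32 CPM in the controls (log2 change 4.46 ± 0.51, adjusted p = 3.44e-07). CCL4, a chemokine of activated lymphocytes and myeloid cells, had 165 and 99.4 CPM in the IRI CD45+ libraries, against 31.6, 41.5 and 18.5 CPM in the controls (log2 change 2.06 ± 0.28, adjusted p = 1.07e-05). CCL3L1 had 109 and 44.0 CPM in the IRI CD45+ libraries, against 3.16, 8.14 and 0 CPM in the controls (log2 change 4.06 ± 0.67, adjusted p = 0.00161). IL10, the regulatory cytokine, had 66.7 and 48.0 CPM in the IRI CD45+ libraries, against 36.3, 15.5 and 5.29 CPM in the controls (log2 change 1.67 ± 0.44, adjusted p = 0.00843), with control 1 nearest to the graft libraries; the call was lost without IRI CD45+ library 1. CXCL8 had 277 and 183 CPM in the IRI CD45+ libraries, against 6.31, 109.8 and 3.97 CPM in the controls and did not pass the test, except without control 2 (log2 change 5.45). TGFB1 had 235 and 296 CPM in the IRI CD45+ libraries, against 559, 504 and 473 CPM in the controls (log2 change -0.94 ± 0.16, adjusted p = 4.74e-05), against a T cell change of -0.01 (difference -0.88 ± 0.16, adjusted p = 0.00164; lost without IRI CD45+ library 1). TNF (0.24 ± 0.33) and LTB (-0.35 ± 0.21) did not pass the test; LTB rose in T cells (1.48), and in B cells it fell without IRI CD45+ library 2 (-0.76). CSF1, CCL4, CCL3L1 and IL10 also exceeded their T cell changes in limma's test. Without either IRI CD45+ library this was lost for CSF1 and IL10, and without library 1 for CCL3L1; the edgeR interaction test did not call CCL4 (adjusted p = 0.0544) or CCL3L1 (adjusted p = 0.0677). Monocyte and neutrophil genes, given above, were higher in the same B cell sums.

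Cytokine receptors rose more often than they fell, 7 against 2 of 19, with a median log2 change of 0.57; leaving out 1 library gave 6 to 9 rises and 1 or 2 falls. Over all 5 libraries 36.8% rose and 10.5% fell, against 18.2% and 21.8% of all genes. IL21R, the receptor for the helper T cell cytokine IL-21, had 251 and 289.5 CPM in the IRI CD45+ libraries, against 48.9, 63.5 and 71.5 CPM in the controls (log2 change 2.13 ± 0.18, adjusted p = 3.76e-09), a larger rise than in T cells (0.62, difference 1.56 ± 0.23, adjusted p = 0.000409). The interferon gamma receptor chains IFNGR2 (207 and 195 against 61.6, 83.8 and 70.15 CPM) and IFNGR1 (38.4 and 46.7 against 12.6, 20.3 and 15.9 CPM) rose together. IL4R had 116 and 92.1 CPM in the IRI CD45+ libraries, against 28.4, 35.0 and 58.2 CPM in the controls (log2 change 1.36 ± 0.26, adjusted p = 0.000224), and TNFRSF1B rose by 0.78 ± 0.15. IL6ST, the signal chain of IL-6 family receptors, had 8.76 and 8.01 CPM in the IRI CD45+ libraries, against 25.3, 26.8 and 13.2 CPM in the controls (log2 change -1.38 ± 0.45, adjusted p = 0.0159) and rose in T cells (difference -2.10 ± 0.27, adjusted p = 0.000127); its fall lost the call without control 1, control 2 or IRI CD45+ library 2.

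Of 17 Toll-like receptor genes and adaptors, 7 rose and 2 fell; without one library the counts ran between 4 and 6, and between 0 and 2. With every library in, 41.2% rose and 11.8% fell, against 18.2% and 21.8% of all genes. IRF5, which acts downstream of Toll-like receptors, had 213 and 215 CPM in the IRI CD45+ libraries, against 131, 141 and 105 CPM in the controls (log2 change 0.76 ± 0.17, adjusted p = 0.00109). UNC93B1, which carries the nucleic acid receptors to endosomes, had 60.7 and 38.0 CPM in the IRI CD45+ libraries, against 14.2, 29.3 and 17.2 CPM in the controls (log2 change 1.20 ± 0.32, adjusted p = 0.00467; not past the threshold without IRI CD45+ library 1). TLR4 had 23.6 and 26.7 CPM in the IRI CD45+ libraries, against 1.58, 13.0 and 1.32 CPM in the controls (log2 change 1.94 ± 0.55, adjusted p = 0.00807), with control 2 apart from the other controls, and changed by 3.996 without it. TLR7, the RNA receptor of B cells, had 37.8 and 25.4 CPM in the IRI CD45+ libraries, against 23.7, 24.4 and 37.1 CPM in the controls and did not pass the test.

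In the BAFF and CD40 axis 2 of 10 genes rose and 3 fell (20% and 30%, against 18.2% and 21.8% of all genes). TNFRSF13C, the survival receptor for BAFF, had 82.9 and 123 CPM in the IRI CD45+ libraries, against 52.1, 50.4 and 41.0 CPM in the controls (log2 change 1.10 ± 0.24, adjusted p = 0.000686). The ubiquitin ligases BIRC2 (206 and 191 against 466, 398 and 441 CPM) and BIRC3 both fell. CD40, the receptor for helper T cell contact, had 367 and 280.2 CPM in the IRI CD45+ libraries, against 322, 325 and 304 CPM in the controls (log2 change 0.03 ± 0.16, adjusted p = 0.914).

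Of 24 heat shock and chaperone genes, 13 fell and 3 rose (54.2% and 12.5%, against 21.8% and 18.2% of all genes), with a median log2 change of -0.51. The cochaperone DNAJA1 had 382 and 497 CPM in the IRI CD45+ libraries, against 2605, 2083 and 2242 CPM in the controls (log2 change -2.39 ± 0.13, adjusted p = 5.41e-12). HSPA8 had 1208 and 1564 CPM in the IRI CD45+ libraries, against 4335, 3608 and 3768 CPM in the controls (log2 change -1.49 ± 0.12, adjusted p = 1.82e-09). DNAJB1 had 185 and 202 CPM in the IRI CD45+ libraries, against 830.3, 678 and 605 CPM in the controls (log2 change -1.86 ± 0.16, adjusted p = 4.09e-09). BAG3 had 65.4 and 65.4 CPM in the IRI CD45+ libraries, against 251, 215 and 302 CPM in the controls (log2 change -1.96 ± 0.19, adjusted p = 2.68e-08). Both graft libraries lay below all controls for 30.8% of all genes tested and for each of these 4. They fell in T cells too, but less for DNAJA1 (-1.63; difference -0.69 ± 0.10, adjusted p = 0.0003) and BAG3 (-0.61; difference -1.24 ± 0.20, adjusted p = 0.000836). HSPA5, the chaperone of the endoplasmic reticulum, fell in B cells (log2 change -0.51 ± 0.12, adjusted p = 0.00183) and rose in T cells (0.61; difference -1.05 ± 0.10, adjusted p = 8.96e-06). The mitochondrial HSPA9 and the lectin chaperone CANX rose (1.25 and 1.13), as did HSP90AB1 (0.26; lost without control 2, control 3 or IRI CD45+ library 2). Digestion was the same for all lungs, but only the graft cells were stained and sorted, and the part of handling in these genes was not tested.

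Of 18 apoptosis regulators, 5 rose and 5 fell (27.8% each, against 18.2% and 21.8% of all genes). BCL2, the main survival protein of resting lymphocytes, had 320.2 and 252 CPM in the IRI CD45+ libraries, against 117, 74.9 and 97.95 CPM in the controls (log2 change 1.596 ± 0.19, adjusted p = 5.2e-07), and the BH3-only killers BMF and BBC3 rose too (BBC3 142 and 117 against 83.7, 49.6 and 45.0 CPM, log2 change 1.15 ± 0.23, adjusted p = 0.000422). MCL1 had 576 and 728 CPM in the IRI CD45+ libraries, against 639, 558 and 608 CPM in the controls and did not pass the test, while it rose by 0.97 in T cells. The caspase gene CASP8 fell (log2 change -1.06 ± 0.22).

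Of 22 cell cycle genes, 10 fell and 1 rose (45.5% and 4.55%, against 21.8% and 18.2% of all genes), with a median log2 change of -0.79; without IRI CD45+ library 1, 6 fell. CDK1 had 4.72 and 12.7 CPM in the IRI CD45+ libraries, against 53.7, 63.5 and 54.3 CPM in the controls (log2 change -2.71 ± 0.36, adjusted p = 2.44e-06). STMN1 had 146 and 269 CPM in the IRI CD45+ libraries, against 646, 809 and 657 CPM in the controls (log2 change -1.76 ± 0.22, adjusted p = 2.65e-05). PCNA had 121 and 193 CPM in the IRI CD45+ libraries, against 316, 347 and 328 CPM in the controls (log2 change -1.08 ± 0.18, adjusted p = 6.9e-05). The licensing genes MCM2, MCM3, MCM4, MCM6 and MCM7 had log2 changes from -0.19 to 0.30 and did not pass the test, whereas they fell in T cells. Relative to T cells 7 of the 22 genes, these 5 among them, were higher in B cells and none lower (6.19% and 6.85% of all genes). The differences of MCM2, MCM3, MCM4 and MCM6 were lost without either IRI CD45+ library, and those of all 5 when all other cells took the place of T cells. B cells with UMIs of at least 2 of 9 proliferation genes made up 4.15% and 6.13% of IRI CD45+ B cells and 10.2%, 20.4% and 13.4% of control B cells. CDK1 and AURKB, whose falls are given above, are among the 9, so this share is not a separate result. Cells were not thinned for this count, and the part of depth was not tested. The cyclin CCND2 rose by 0.76 ± 0.19.

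Of 15 germinal centre genes, most of which did not pass the test, 2 rose and 5 fell, and leaving out 1 library gave 1 or 2 rises and 3 to 5 falls. Shares over all 5 libraries were 13.3% and 33.3%, against 18.2% and 21.8% of all genes. The methyltransferase EZH2 had 27.6 and 37.4 CPM in the IRI CD45+ libraries, against 106, 118 and 91.3 CPM in the controls (log2 change -1.70 ± 0.24, adjusted p = 7.28e-06). LMO2 had 213 and 317 CPM in the IRI CD45+ libraries, against 107, 124 and 165 CPM in the controls (log2 change 1.002 ± 0.20, adjusted p = 0.000339). BCL6 had 70.8 and 76.1 CPM in the IRI CD45+ libraries, against 188, 133 and 74.1 CPM in the controls (log2 change -0.83 ± 0.29, adjusted p = 0.033), overlapping between groups, and lost its call without control 1, control 2 or either IRI CD45+ library. S1PR2, which confines germinal centre B cells, had 25.6 and 87.4 CPM in the IRI CD45+ libraries, against 58.4, 53.7 and 37.1 CPM in the controls; without IRI CD45+ library 1 it changed by 0.84 (adjusted p = 0.03) and without library 2 by -0.94 (adjusted p = 0.0488). In cycling B cells S1PR2 had 244 and 449 CPM in the IRI CD45+ libraries, against 81.4, 52.4 and 45.6 CPM in the controls, from 11 and 16, and 17, 57 and 22 cells.

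In the plasma cell programme 1 of 16 rose and 5 fell (6.25% and 31.25%, against 18.2% and 21.8% of all genes). The rule had freed these cells of TNFRSF17 and of most MZB1. JCHAIN, which joins IgA and IgM, had 28.3 and 43.4 CPM in the IRI CD45+ libraries, against 118, 141 and 88.7 CPM in the controls (log2 change -1.70 ± 0.25, adjusted p = 1.26e-05). ELL2, an elongation factor of secretory immunoglobulin mRNA, had 119 and 119 CPM in the IRI CD45+ libraries, against 284, 244 and 225 CPM in the controls. TENT5C, which lengthens immunoglobulin poly(A) tails, had 256 and 330.2 CPM in the IRI CD45+ libraries, against 556, 519 and 736 CPM in the controls; both fell. IRF4 rose by 0.46 ± 0.16 and PRDM1 fell by 0.75 on the log2 scale. IRF4 lost its call without control 1, control 2 or IRI CD45+ library 1, and PRDM1 without control 1, control 2 or either IRI CD45+ library. XBP1 (-0.11 ± 0.22) did not pass the test.

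Of 49 nuclear oxidative phosphorylation genes, 4 rose and 7 fell (8.16% and 14.3%, against 18.2% and 21.8% of all genes), with log2 changes of 1.26 for NDUFS6 and -0.80 for COX7B. The NDUFS6 change was 0.77 without IRI CD45+ library 1. Relative to T cells, however, 16 of the 49 were higher in B cells and 1 was lower, against 6.19% and 6.85% of all genes. Of 28 glycolysis and hypoxia genes, 5 rose and 6 fell (17.9% and 21.4%, near the shares over all genes), and the rises numbered 1 without control 2. PGAM1 had 431 and 354 CPM in the IRI CD45+ libraries, against 193, 217 and 209 CPM in the controls (log2 change 0.92 ± 0.16, adjusted p = 5.88e-05). GAPDH had 428 and 404 CPM in the IRI CD45+ libraries, against 875, 837 and 672 CPM in the controls (log2 change -0.93 ± 0.14, adjusted p = 1.69e-05). HIF1A had 142 and 169 CPM in the IRI CD45+ libraries, against 322, 245 and 244 CPM in the controls (log2 change -0.79 ± 0.17, adjusted p = 0.000897). In the ferroptosis list, 3 of 21 rose and 3 fell (14.3% each, against 18.2% and 21.8% of all genes). GPX4, the enzyme that removes lipid peroxides, had 182 and 150.1 CPM in the IRI CD45+ libraries, against 80.5, 79.7 and 50.3 CPM in the controls (log2 change 1.23 ± 0.21, adjusted p = 5e-05), and each of the other 5 lost its call when some library was left out.

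Ribosomal protein genes moved in both directions in B cells, 17 of 47 rising and 9 falling (36.2% and 19.1%, against 18.2% and 21.8% of all genes). Without control 2, 10 rose and 9 fell. RPL28 had 1557 and 1534 CPM in the IRI CD45+ libraries, against 3430.2, 3215 and 3017 CPM in the controls (log2 change -1.06 ± 0.10, adjusted p = 1.17e-08). RPS21 had 1636 and 1374 CPM in the IRI CD45+ libraries, against 3135, 2935 and 2943 CPM in the controls (log2 change -0.997 ± 0.10, adjusted p = 6.73e-08). Their changes lay below those of T cells in 37 of 47 genes past the threshold in limma's test and in 26 by the interaction test, which found 4.84% of all genes higher and 5.71% lower in B cells. The median difference was -0.34 on the log2 scale.

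Set against T cells, the B cell changes that stood furthest below were PDE4D, FRMD4B and MCOLN2. PDE4D, a phosphodiesterase that breaks down cAMP, had 18.9 and 20.7 CPM in the IRI CD45+ libraries, against 1378, 1126 and 829 CPM in the controls in B cells (log2 change -5.80 ± 0.24, adjusted p = 1.96e-12) and changed by -1.63 in T cells (difference -3.95 ± 0.17, adjusted p = 7.83e-10). FRMD4B, a scaffold protein, had 9.44 and 9.34 CPM in the IRI CD45+ libraries, against 243, 183 and 233 CPM in the controls (log2 change -4.52 ± 0.25, adjusted p = 2.33e-12), against -0.61 in T cells (difference -3.61 ± 0.20, adjusted p = 1.58e-08). MCOLN2, a lysosomal channel, had 63.4 and 34.7 CPM in the IRI CD45+ libraries, against 120.0, 102 and 106 CPM in the controls (log2 change -1.15 ± 0.24, adjusted p = 0.000631; -0.76 without IRI CD45+ library 2) and rose by 2.36 in T cells (difference -3.49 ± 0.30, adjusted p = 2.64e-06). PDE4D and ADORA2A, which act on the same second messenger, thus both fell further in B cells than in T cells. SERPINB1 rose less in B cells (1.73) than in T cells (4.52), a difference that the interaction test did not call (adjusted p = 0.227). LRRK1, a kinase, rose in B cells (1.10, or 0.73 without IRI CD45+ library 1) and fell in T cells (-1.84). The difference was 2.98 ± 0.53 (limma adjusted p = 0.00164, lost without IRI CD45+ library 2). Its T cell levels were low, at 0.935 CPM on average in IRI CD45+ T cells and 3.73 CPM in control T cells. EBF1, given above, also fell in T cells from low levels and did not pass the test in B cells. The actin gene ACTB fell in both, by 2.86 in B cells and 3.32 in T cells on the log2 scale.

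**Figure D5:**
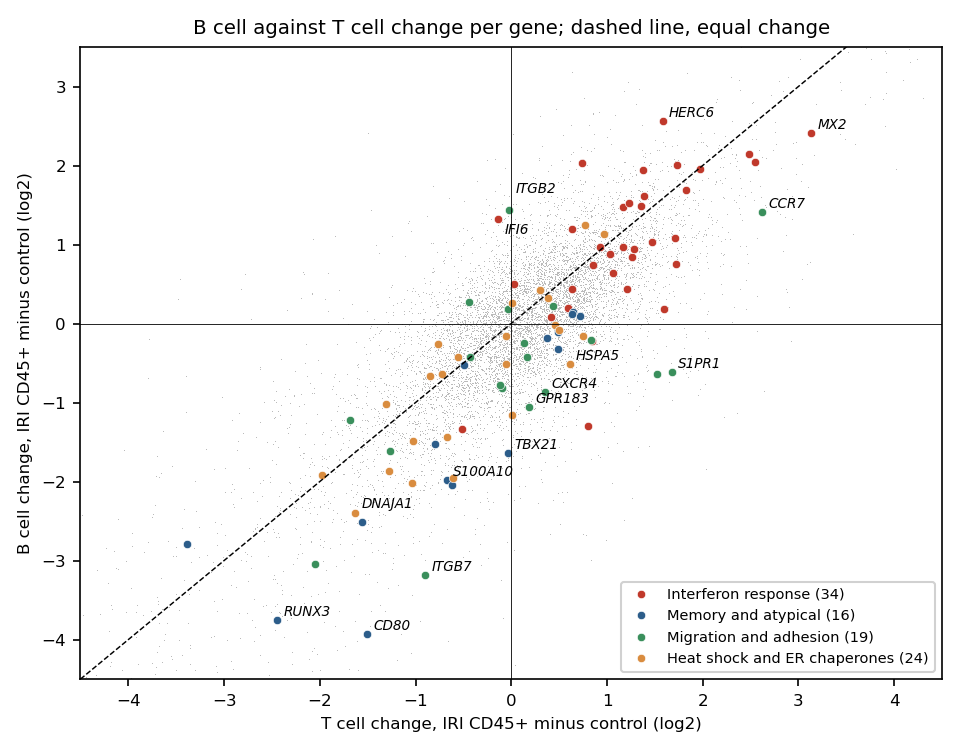
Log2 change (IRI CD45+ minus control) of each gene in B cells (vertical axis) against T cells of the same libraries (horizontal axis); coloured points are genes of 4 lists, small grey points are the other genes tested, and the dashed line marks equal change. CD80 (-3.93 and -1.50), ITGB7, S1PR1 and CXCR4 lie below the line, and IFI6 and ITGB2 above it; genes beyond the axes are not drawn and labels were chosen after the values were seen.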

How the data were processed

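Single-cell RNA was captured in droplets (DNBelab C Series HT) and sequenced on a DNBSEQ-T7, per the labels' protocols. The deposited files hold UMI counts per gene and cell, written by PISA per the file headers. Genome build Sscrofa11.1, R 4.2.2 and Seurat 5.5.3 are named in the submitters' processing notes; neither the aligner nor the annotation is given in the sources used here. The control files list no cell under 1000 UMIs, so a minimum may have been applied to them before deposit and not to the graft files. Gene names come from the files, and 139 of 17062 Ensembl IDs were given a symbol from RefSeq, which also supplied the coordinates. Intervals on ratios (95%) and floors (3 counts) cover counting error only.

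From these counts, B cells were chosen by the rule above, and T cells by at least 1000 UMIs, 2 or more UMIs of CD3E, CD3D and CD3G together and none of MS4A1, CD79A, CD79B or CD163. No doublet caller was run; an alternative cell rule also required 0 UMIs of further lineage genes. UMIs of genes listed in all 5 libraries were summed per library, since cells are not replicates, and tested with edgeR 4.0.16 (quasi-likelihood, TMM, filterByExpr, Benjamini-Hochberg over all genes tested, adjusted p of 0.05) in R 4.3.3. B minus T differences of log2 CPM (prior count 2) were tested with limma 3.58.1. A first version of that test took its trend on the mean difference, called few genes and found none of the simulated differences of 2-fold and 4-fold; an edgeR interaction was then added and the limma trend was set on mean log2 CPM, after the data had been seen. On simulated counts with 200 changed genes, edgeR found 47.1%, 84.8% and 100% of 2-, 4- and 16-fold changes between 3 control and 2 IRI CD45+ B cell sums over 8393 genes, with 6.10% of its calls false. For the B minus T differences limma found 11.8%, 68.2% and 97.0% over 8841 genes and the interaction 14.7%, 72.7% and 98.5% over 8855, so 2-fold differences were mostly missed in the simulation. It changed far fewer genes than were called here and drew B and T sums separately, so recovery in the real counts can differ. Shares were compared with exact permutation tests over the libraries (10 arrangements).

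The members and gene lists were chosen with earlier results of these data known. Named genes were the 10 largest rises and 10 largest falls with at least 50 CPM in the higher group, no overlap between groups and a gene span under 50 kb, the 5 largest differences from T cells in each direction, and up to 4 genes of smallest p in each list, less a few that are not reported here; the further genes named and those in the figures were chosen after their values were seen. The libraries are separate samples per the labels, which do not say which graft and control libraries come from the same pair. Alternatives were other scalings, DESeq2 1.42.0, other filters, cell rules and depths, a replicate block, and leaving out each library. The CD45- graft library entered no test.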

Additional observations from a re-analysis of the deposited data

Results flagged for a closer look

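Between B and T cells of the same 5 libraries, the change from control to graft differed by limma's test, and the 5 genes with the largest differences in each direction are given here. The B cell change was lower than the T cell change for PDE4D (difference -3.95), FRMD4B (-3.61), MCOLN2 (-3.49), SERPINB1 (-2.78) and RETN (-2.67, adjusted p = 0.00793). The edgeR interaction did not call SERPINB1 (adjusted p = 0.227) or RETN (adjusted p = 0.212), and both were lost from limma's test without either IRI CD45+ library.

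The B cell change was higher for MGP (4.54), DCN (3.55), COL3A1 (3.31), EBF1 (3.22) and LRRK1 (2.98). MGP, a matrix protein, had 37.8 and 0.667 CPM in the IRI CD45+ libraries, against 42.6, 70.0 and 228 CPM in the controls, all for B cells. Both graft values lay below all controls, but the B cell change of -2.55 did not pass edgeR's test; the T cell change was -8.31. DCN and COL3A1, also matrix genes, had 0 and 1 UMI in the B cells of both IRI CD45+ libraries together, and DCN was at 0 in their T cells as well, so that its difference depends on the prior count and the depth of the sums. The interaction called neither (adjusted p = 1 and 0.46). The fibroblast sums given above, of which DCN is itself a part, were also lower in IRI CD45+ B cells than in control B cells, and their part in the differences was not tested.

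In the CD45- graft library, which entered no comparison, 286 of 12551 cells with at least 1000 UMIs (2.28%) met the B cell rule. CCR7 had 808 CPM there (over the genes listed in all 5 compared libraries), with 1987 and 1775 CPM in the IRI CD45+ libraries and 721, 644 and 742 CPM in the controls, to which it was nearer. NFKBIA had 4661 CPM there, with 3589 and 2764 CPM in the IRI CD45+ libraries and 949.8, 1013 and 769 CPM in the controls. MX2 had 264 CPM there, with 378 and 618 CPM in the IRI CD45+ libraries and 76.3, 117 and 80.3 CPM in the controls. These 3 genes exceeded all 3 controls, and the values are a description of 1 library with no test. CD69 (276 CPM), CD80 (20.3 CPM) and RUNX3 (3.04 CPM) lay below all 3 controls. Other genes did not follow the IRI CD45+ libraries. CD74 had 2047 CPM there, below all 3 controls (2911, 2542 and 2226 CPM), with 4486 and 4633 CPM in the IRI CD45+ libraries. S100A10 had 719 CPM there, above all 3 controls (420, 510 and 515 CPM), with 103 and 142 CPM in the IRI CD45+ libraries. The genes given here were chosen after their values were seen. All cells of the CD45- library that met the rule also held SFTPC, an alveolar type 2 cell gene, against 3.01%, 3.23% and 0.610% of control B cells. The part of free or mixed RNA was not tested.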

How the results depend on the processing

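Of 3539 genes called in B cells, DESeq2 called 2220 (876 rose, 1344 fell), and 1729 of 4792 were called among genes with a span under 50 kb, where fewer were tested. Other scalings, filters, cell rules and depths gave between 2504 and 4284. Leaving out 1 library gave 2632 (without control 2) to 3028 (without control 3); where 1 graft library remained, it was assumed to vary as the controls do. The B cell share differed by 2.79 to 4.12 points under other cell rules, by 1.77 with MS4A1 required, and by 3.66 to 4.52 without 1 library, always higher in IRI CD45+. The 1763 B minus T differences became 4199 (2674 higher, 1525 lower in B) against all other cells, 1028 (374 and 654) with a prior count of 0.5 and 931 (473 and 458) with no filter. Leaving out 1 library gave 414 to 1540. The interaction called 1331, and 991, 1105 and 1192 without controls 1, 2 and 3, and 719 and 899 without IRI CD45+ libraries 1 and 2. Causes were not tested. With a replicate block, 3295 genes and 2174 differences were called. Correlations of deviations from the group means were 0.0039 and -0.0041 for the same-numbered pairs. The deviations of IRI CD45+ library 1 mirror those of library 2 by construction, so this check cannot decide whether the libraries pair.

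Over 206 named genes, 2941 of 3229 alternative values of the B cell change kept direction and call, 191 lost and 36 gained the call, and 61 reversed; the reversals fell on 25 genes that had not passed the test. The reversed log2 changes were BLNK -0.022, CD40 -0.019, FOS -0.25 and S1PR2 -0.069 with a replicate block; BLNK -0.21 and FAS 0.14 with 3 or more B gene UMIs; BLNK -0.24, CD40 -0.0048, CD86 -0.015, MCM2 -0.60, MCM7 -0.035, S1PR2 -1.02, SPIB -0.038 and XBP1 0.040 without UMIs of further lineage genes; BLNK -0.013, CD40 -0.017, CD44 -0.030 and S1PR2 -0.13 with thinned sums; CD40 -0.063, FOS -0.028 and SPIB -0.015 under 50 kb; CD40 -0.048, CD44 -0.15, CD83 -0.025, CXCR5 -0.094, FAS 0.45, MCL1 -0.063, MCM3 0.037 and TLR7 -0.045 with MS4A1 required; JUN 0.0095 by DESeq2 and 0.088 with no filter. Without 1 library the ranges that crossed 0 were BCL11A -0.049 to 0.24, BLNK -0.13 to 0.26, CD22 -0.42 to 0.028, CD40 -0.15 to 0.22, CD86 -0.018 to 0.16, EBF1 -0.22 to 0.71, FAS -0.51 to 0.12, FOS -0.30 to 0.40, GBP1 -0.14 to 0.88, JUN -0.12 to 0.071, LTB -0.76 to 0.0035, MCL1 -0.048 to 0.30, MCM2 -0.27 to 0.66, MCM3 -0.38 to 0.17, MCM4 -0.58 to 0.16, MCM6 -0.029 to 0.61, MCM7 -0.017 to 0.28, POU2AF1 -0.43 to 0.052, S1PR2 -0.94 to 0.84, SPIB -0.076 to 0.18, TLR7 -0.13 to 0.43 and XBP1 -0.30 to 0.016.

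Of 104 named differences from T cells, 69 passed against all other cells, 56 and 56 without IRI CD45+ library 1 and 2, and 88 by the interaction. Reversed against all other cells were ACTB -0.083, GAPDH -0.40, GRB2 -0.57, HSP90AB1 -0.013, IFNGR2 0.74, ITGAD -0.22, MX2 0.21 and POU2AF1 -0.015. By the interaction COL3A1 reversed to -1.38 without IRI CD45+ library 2, EIF1AY to 3.03 without control 2, and ZAN to -2.86, and to -2.99, -2.51 and -3.06 without controls 1, 2 and 3 and -3.42 and -1.89 without IRI CD45+ libraries 1 and 2. Depth limits low genes most: B cell sums held 668582 UMIs of shared genes in the smallest library.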
